A study of Mus musculus with 9 samples.

Results

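The comparison described here sets the 3 libraries titled SUS against the 3 libraries of drug-naive mice, 6 of the 9 RNA-seq libraries of the study. The libraries were assigned to groups by their sample titles alone. All genes of the deposited count table were considered, and 39210 of 52636 had enough reads to be tested. The 3 libraries titled RES came from mice that took cocaine at the same dose and on the same schedules as the SUS mice. These libraries entered the same model and are given beside the SUS values where they bear on them.

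All mice were male C57BL/6. Mice of the SUS group carried a catheter and took cocaine by nosepoke at 1.2 mg/kg per infusion, first on a fixed ratio schedule capped at 40 infusions, later in 10 daily progressive ratio sessions of 23 h, a schedule on which every further infusion costs more responses. Their brains were taken on day 3 after the last of these sessions. The naive mice, titled WT, are labelled as never exposed to cocaine, and the labels record neither a catheter nor nosepoke training for them. Both groups were perfused, and nucleus accumbens punches pooled from 2 to 3 mice were digested with papain, and the cells were stained for ChAT with a labelled antibody and sorted by fluorescence. Whether each library had a pool of its own is not recorded, so every p-value reflects the scatter of these libraries, which may be technical. The titles and the behavioural labels conflict: SUS libraries are labelled resilient and RES libraries susceptible, so SUS is used here as a name only.

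The nucleus accumbens is the part of the striatum most tied to reward. Its principal cells are GABAergic medium spiny neurons, which carry D1 or D2 dopamine receptors. Cholinergic interneurons are a sparse cell type that makes acetylcholine with the enzyme ChAT, loads it into vesicles with the transporter encoded by Slc18a3 and takes choline back up with that encoded by Slc5a7. Cocaine blocks the dopamine transporter, so that dopamine stays longer at the receptors of all these cells.

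Total counts were 4471675 to 10667056 in the naive libraries and 8081639 to 11155730 in the SUS libraries. Mitochondrial genes took 17.1% to 27.0% of counts in naive and 15.9% to 26.2% in SUS libraries (two-sided exact permutation test, p = 0.6, with 0.1 the smallest p that 3 against 3 allows). A background level was set from 1134 olfactory receptor genes, which brain tissue barely uses, as their counts per kb of exon, and each gene's count density was expressed as a multiple of it. The markers of the sorted cell type were close to that background: 0 of 17 genes of cholinergic identity reached 3 times background on average over the 6 libraries. The same level was reached by 18 of 18 microglial, 16 of 18 astrocyte, 16 of 18 medium spiny neuron and 13 of 16 oligodendrocyte markers. In single libraries, Chat stood at 7.86 times background in SUS replicate 2, against 0.877 to 1.93 times in the other naive and SUS libraries. The libraries are therefore named by their titles and not as cholinergic interneurons below.

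No gene passed the test between SUS and naive. Of 39210 genes, 0 (0%) had an adjusted p under 0.05 by edgeR's quasi-likelihood test with Benjamini-Hochberg adjustment, and none had one below 1.00 after rounding. With DESeq2 and limma-voom the calls were 0 too, with 931 and 3225 genes at an unadjusted p under 0.05. By edgeR that count was 1225 genes, 3.12% of those tested, with 669 higher and 556 lower in SUS. The median log2 fold change, always given as SUS minus naive on counts scaled with TMM, a trimmed mean of log ratios between libraries, was 0.02, and the median standard error of a gene was 0.34. All 3 SUS libraries lay above all 3 naive libraries for 1509 genes, 3.85% of those tested, and below them for 1629 genes, 4.15%. Such genes are called separated in what follows, which describes 6 libraries and is no test. Among the 14451 genes at 10 CPM (counts scaled to library size) or more, 490 were separated upward (3.39%) and 361 downward (2.5%).

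The genes described first are those with the smallest unadjusted p among separated protein-coding genes at 10 CPM and 3 times background or more. Genes with predicted-gene, Rik or clone names and olfactory, vomeronasal and taste receptor genes were left out. Of the 5489 genes that met these conditions on level and name, 76 (1.38%) were separated upward and 50 (0.911%) downward. The 12 each way are shown in the plot of separated genes. None of these 24 genes passed the test, with an adjusted p of 1.00 for each.

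**Figure D1:**
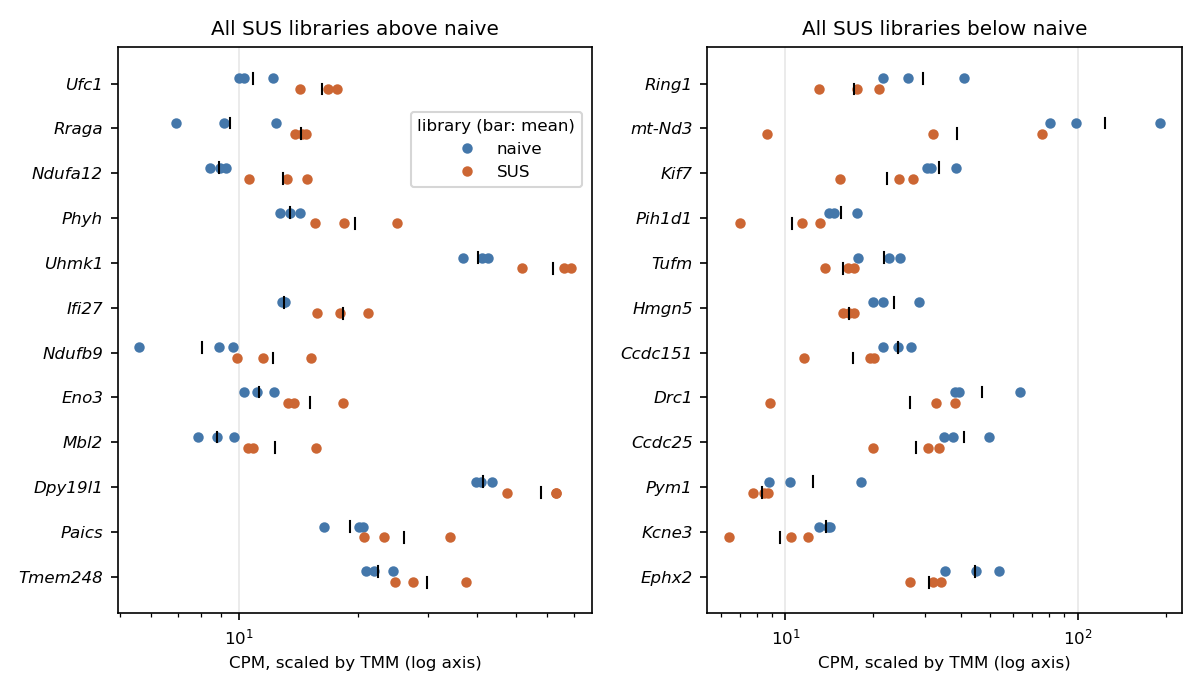
Each row is a gene, and the points are CPM scaled by TMM in the 3 naive (blue) and 3 SUS (orange) libraries on a log axis, with the group mean as a black bar. The 2 groups do not overlap in any row because the genes were chosen for that, and mt-Nd3 spans the widest range, from 8.66 to 192 CPM.

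The genes named by this rule as higher in SUS are described first. Ufc1 encodes the conjugating enzyme that hands the ubiquitin-like protein UFM1 to its targets. It stood at 10.0, 10.3 and 12.2 CPM in naive replicates 1 to 3 and at 14.3, 16.7 and 17.7 CPM in SUS replicates 1 to 3, a log2 fold change of 0.57 (SE 0.23). Rraga encodes the small GTPase RagA, which brings mTORC1 to the lysosome when amino acids are present. Its CPM were 6.93, 12.4 and 9.16 in naive and 14.4, 13.9 and 14.8 in SUS libraries, 0.63 on the log2 scale (SE 0.25). The SUS libraries were tighter than the naive ones for Rraga, with SDs of 0.45 and 2.74 CPM (n = 3 each). Ndufa12 and Ndufb9, both accessory subunits of respiratory complex I, had log2 fold changes of 0.53 (SE 0.22) and 0.62 (SE 0.29). Ndufa12 lay at 8.46 to 9.25 CPM in naive and 10.6 to 14.9 CPM in SUS libraries, and Ndufb9 at 5.60 to 9.67 and 9.87 to 15.2 CPM.

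The most counted gene of this group was Uhmk1, a kinase with an RNA-binding domain that is found at growth cones and in neuronal RNA granules. It had 41.1, 42.6 and 36.7 CPM in naive and 66.0, 51.8 and 68.8 CPM in SUS libraries, 0.63 on the log2 scale (SE 0.27). Dpy19l1, which encodes a C-mannosyltransferase of the endoplasmic reticulum, stood at 39.6 to 43.5 CPM in naive and 47.4 to 63.2 CPM in SUS libraries (0.49, SE 0.26). Both had their lowest SUS value in replicate 2. Enzymes of metabolism were Phyh, which starts the breakdown of phytanic acid in peroxisomes (0.54, SE 0.23), Eno3, the muscle form of the glycolytic enzyme enolase (0.42, SE 0.22), and Paics, of purine synthesis (0.46, SE 0.27). Paics nearly overlapped between groups, with a naive maximum of 20.6 and a SUS minimum of 20.7 CPM. Mbl2, which encodes a mannose-binding lectin made mainly by the liver, had a log2 fold change of 0.48 (SE 0.25), and the membrane protein gene Tmem248 0.42 (SE 0.25).

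Ifi27, an interferon-induced gene whose product lies in mitochondrial membranes, completed the genes higher in SUS (GRCm38, chromosome 12, 103434211 to 103440239). Its level was 12.9 to 13.1 CPM in the 3 naive libraries and 21.2, 15.7 and 18.0 CPM in SUS replicates 1 to 3, a log2 fold change of 0.50 (SE 0.22). The naive SD was 0.105 CPM and the SUS SD 2.76 CPM (n = 3 each).

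On the lower side, mt-Nd3 had the largest difference and the highest level of the 12. It encodes a core subunit of complex I on the mitochondrial genome (GRCm38, chromosome M, 9459 to 9806, plus strand). Its CPM were 98.8, 192 and 80.2 in naive and 8.66, 75.3 and 32.0 in SUS libraries, a log2 fold change of -1.67 (SE 0.73). SUS replicate 1 held 80 counts of it, against 635 to 867 in the naive libraries. As a share of all counts of the 13 mitochondrially encoded mRNAs, mt-Nd3 took 0.387%, 0.361% and 0.315% in naive and 0.0189%, 0.333% and 0.0930% in SUS libraries. On this scale SUS replicate 2 lay within the naive range, and replicates 1 and 3 lay below it. In the RES libraries the share was 0.370%, 0.355% and 0.214%. The other 12 mitochondrially encoded genes had log2 fold changes between -0.37 and 0.41, and their summed level followed the library and not the group, as given further on.

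Of the other genes lower in SUS, Drc1 encodes a part of the nexin-dynein link of motile cilia, Ccdc151 a factor that docks outer dynein arms, Kif7 a kinesin of the primary cilium that acts in Hedgehog signalling, and Pih1d1 a part of the R2TP co-chaperone that helps to assemble large complexes. Drc1 had 38.1, 63.5 and 39.2 CPM in naive and 32.8, 38.1 and 8.83 CPM in SUS libraries (-0.81 on the log2 scale, SE 0.41), so that its SUS replicate 2 touched the naive minimum. Ccdc151 had 21.6 to 26.9 CPM in naive and 11.6 to 20.1 CPM in SUS libraries (-0.50, SE 0.25). Kif7 and Pih1d1 differed by -0.58 (SE 0.26) and -0.54 (SE 0.26). In all 4 genes SUS replicate 3 was the lowest library. These 4 genes were put together after their values were seen and form no tested group. The list of ependymal and choroid plexus markers, the cell types that bear motile cilia in this region, had 6 of 11 genes higher in SUS and a median of 0.04.

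Ring1, which encodes a ubiquitin ligase of Polycomb repressive complex 1, had 21.6, 40.8 and 26.2 CPM in naive and 20.9, 17.6 and 13.1 CPM in SUS libraries (-0.76, SE 0.32). Tufm, the elongation factor of mitochondrial translation, had 17.7 to 24.6 CPM in naive and 13.6 to 17.2 CPM in SUS libraries (-0.46, SE 0.22). Hmgn5, a nucleosome-binding protein gene on the X chromosome, was narrow in SUS libraries, at 15.7 to 17.1 CPM against 20.0 to 28.7 in naive libraries (-0.50, SE 0.24). The remaining genes were Ephx2, the soluble epoxide hydrolase (-0.53, SE 0.28), Pym1, which takes exon junction complexes off mRNA (-0.53, SE 0.28), Kcne3, a potassium channel beta subunit (-0.52, SE 0.28), and Ccdc25 (-0.53, SE 0.27).

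The smallest unadjusted p-values belonged to genes that the level rule left out, and those named here were named after their values were seen. Hbb-bs and Agr2 were near the top, where the other genes had predicted-gene or Rik names. Hba-a1 ranked lower (unadjusted p = 0.0040 by edgeR's quasi-likelihood test) and is given as another globin gene. Hbb-bs, a beta-globin gene (GRCm38, chromosome 7, 103826534 to 103828096), had 11, 5 and 17 counts in naive and 52, 49 and 61 counts in SUS libraries. This corresponds to 1.52 ± 0.053 CPM in naive and 6.15 ± 1.07 CPM in SUS libraries (SD, n = 3 each), a log2 fold change of 2.00 (SE 0.34). Its unadjusted p was 2.6e-05 and its adjusted p 1.00 by edgeR's quasi-likelihood test. Hba-a1, an alpha-globin gene, had 3, 1 and 6 counts in naive and 47, 10 and 11 counts in SUS libraries (2.44, SE 0.72). Their paralogs overlapped between the groups: Hbb-bt had 15, 3 and 16 counts in naive and 16, 8 and 19 in SUS libraries, and Hba-a2 had 19, 0 and 8 against 24, 0 and 1. The globin copies are nearly identical, so reads can be shared between them and the split is uncertain. The list of red blood cell genes had 5 of 6 tested genes above 0 and a median of 0.11, with Slc4a1 at -0.27 (SE 0.24). Another gene left out by the rule on its level, Agr2, a disulfide isomerase of secretory cells, had 12.9, 12.4 and 9.07 CPM in naive and 5.52, 6.54 and 4.59 CPM in SUS libraries (-1.03, SE 0.25). In the plot of fold change by level, Hbb-bs and Hba-a1 lie at or under 3 times background.

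**Figure D2:**
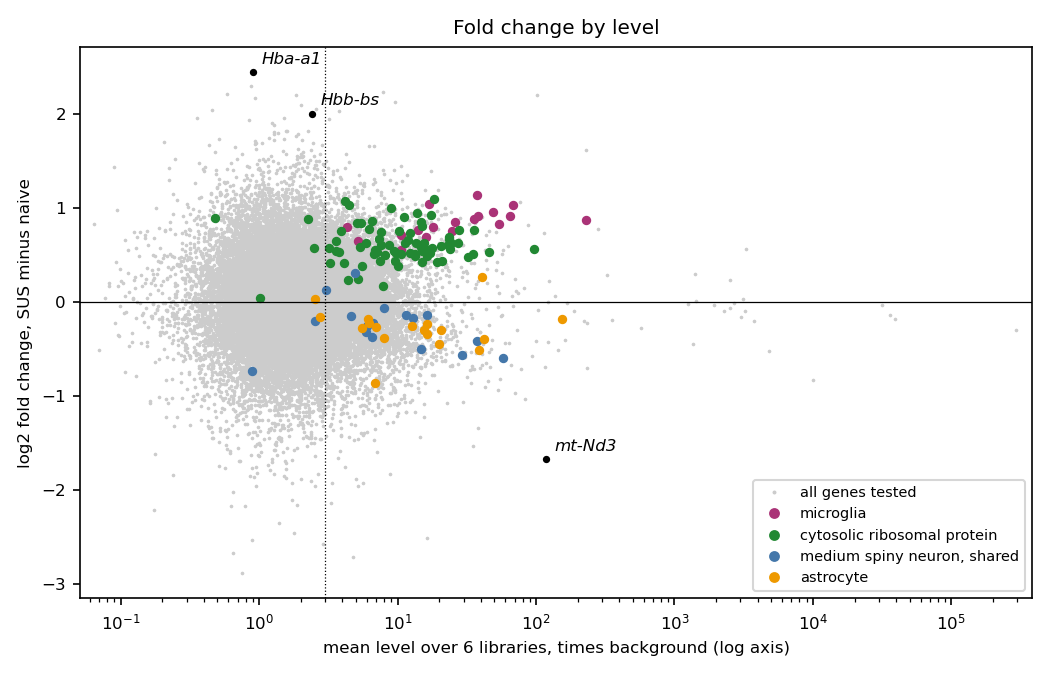
Each point is a gene, with its mean level over the 6 libraries in multiples of background on the horizontal log axis and its log2 fold change, SUS minus naive, on the vertical axis. Microglial and ribosomal protein genes lie above 0 and most medium spiny neuron and astrocyte genes below it, none of them past the test, and the dotted line marks 3 times background.

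Gene lists are described next by the number of members above 0 and their median log2 fold change. Over all genes tested, 52.2% were above 0 and the median was 0.02. Over the 6011 protein-coding genes at 3 times background or more, 3291 were above 0 and the median was 0.04. Of 44 lists, 27 had a median that took the other sign when 1 of the 9 libraries was left out, and 17 did not.

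**Figure D3:**
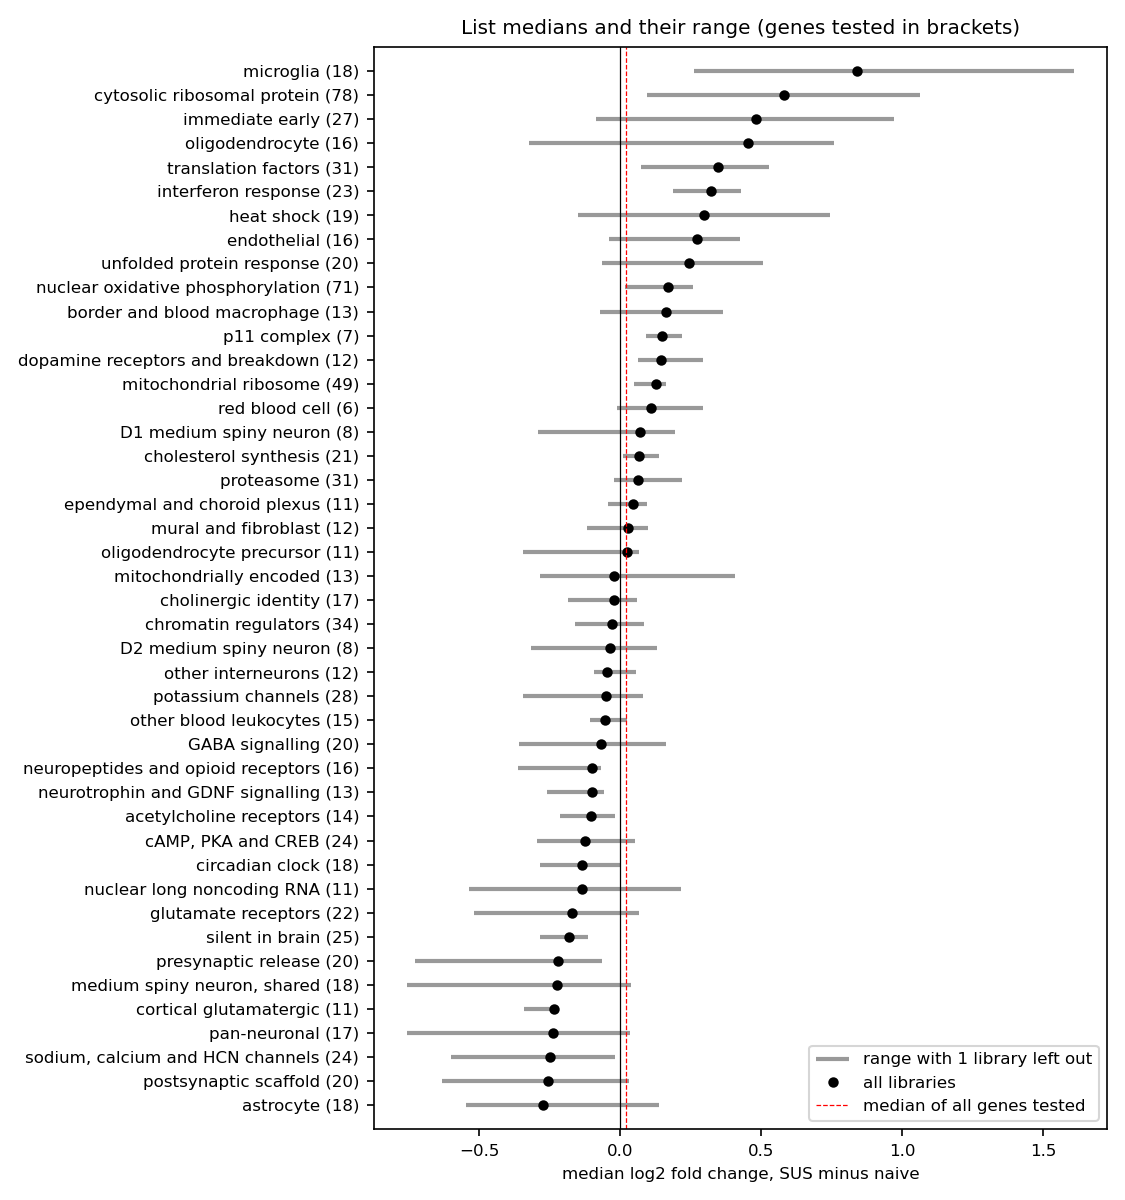
Each row is a gene list with the number of genes tested, the point is its median log2 fold change, SUS minus naive, and the grey line spans the medians obtained with 1 of the 9 libraries left out. The microglial list has the highest median at 0.84 and the astrocyte list the lowest at -0.27, and 27 of the 44 lines cross 0.

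Genes of protein synthesis had positive medians. All 78 cytosolic ribosomal protein genes tested had a positive fold change, with a median of 0.58, and 0 of 78 passed the test or were separated. The large subunit (45 genes) had a median of 0.57 and the small subunit (31 genes) of 0.60. Rps25 had 13.6, 23.3 and 8.98 CPM in naive and 30.1, 8.87 and 54.9 CPM in SUS libraries (1.08, SE 0.55). The summed CPM of the list were 2561, 4526 and 1530.0 in naive and 4642, 1373 and 7013 in SUS libraries. SUS replicate 2 thus held the lowest sum of the 6 libraries, and SUS replicate 3 the highest. Without SUS replicate 3 the median was 0.09, and without naive replicate 2 it was 1.06. Translation factors had 26 of 31 genes above 0 and a median of 0.35 (0.07 without SUS replicate 3). Eif4e, which encodes the cap-binding protein, was the 1 separated factor, at 22.4, 23.6 and 25.8 CPM in naive and 31.0, 28.4 and 33.0 CPM in SUS libraries (0.36, SE 0.25). That is 1 of 31 genes, against 3.85% of all genes tested, and Eif4e lay at 2.25 times background.

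Genes of energy metabolism are given for the nuclear and the mitochondrial genome in turn. Nuclear genes of oxidative phosphorylation had 58 of 71 members above 0 and a median of 0.17, with 0 of 71 past the test. By complex, 27 of 36 genes of complex I were above 0, 4 of 4 of complex II, 7 of 9 of complex III, 10 of 10 of complex IV and 10 of 12 of ATP synthase. The list had 4 separated genes, all higher in SUS, against 3.85% of all genes tested: Ndufs6, Ndufa12, Ndufb3 and Ndufb9, which belong to complex I. Ndufs6 had 2.67, 3.32 and 2.31 CPM in naive and 5.42, 4.43 and 7.98 CPM in SUS libraries (1.14, SE 0.37), at 2.37 times background. Ndufb3 had 2.40 to 3.93 CPM in naive and 3.99 to 6.77 CPM in SUS libraries (0.78, SE 0.36). The list median came to 0.01 without naive replicate 1 and to 0.26 without SUS replicate 2. Genes of the mitochondrial ribosome had 32 of 49 members above 0, a median of 0.13 and 7 separated members, all higher in SUS, against 3.85% of all genes tested. Of these, Mrpl23, with 7.25 to 9.72 CPM in naive and 11.5 to 13.1 CPM in SUS libraries, had the smallest unadjusted p. It lay close to background, at 1.05 times, and 9 of the 49 genes reached 3 times background. The 13 mitochondrially encoded mRNAs had a median of -0.02 with 6 above 0. Their summed CPM were 25535, 53204 and 25445 in naive and 45740, 22576 and 34436 in SUS libraries, with the ranges of both groups overlapping. No test of the difference between the nuclear and mitochondrial lists was made.

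**Figure D4:**
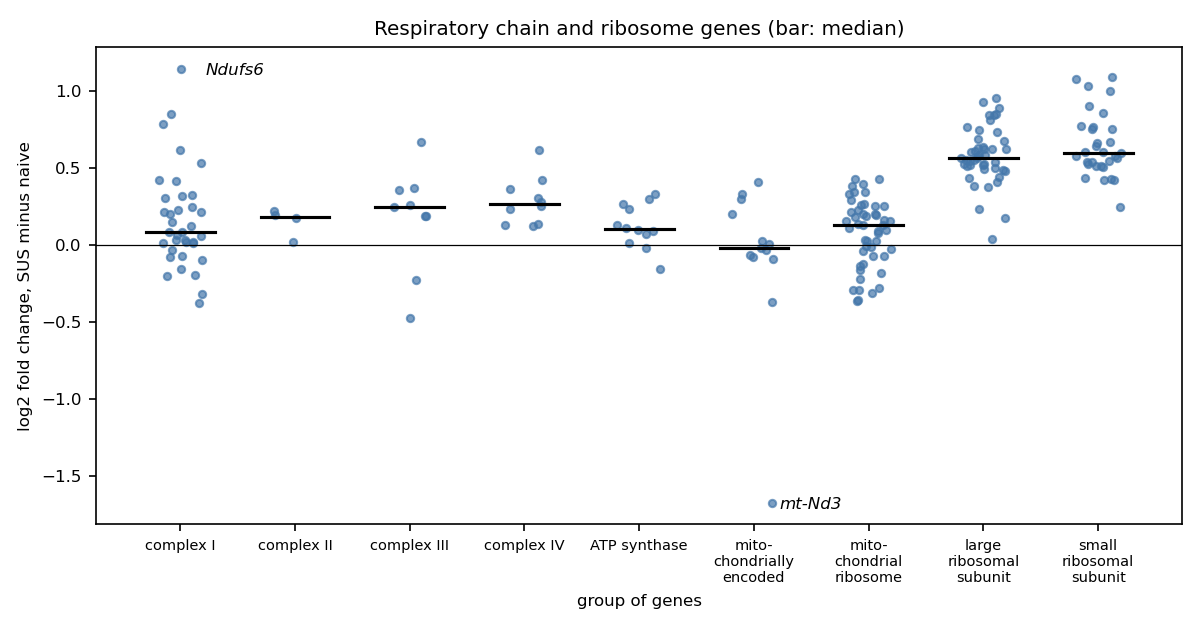
Points are the log2 fold changes, SUS minus naive, of the genes of each respiratory complex, of the mitochondrially encoded mRNAs and of the mitochondrial and cytosolic ribosome, and bars are medians. The 76 genes of the cytosolic ribosomal subunits all lie above 0, complex I spreads on both sides of 0 with Ndufs6 at 1.14, and mt-Nd3 lies apart at -1.67.

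Genes that answer to activity and to stress had positive medians that rested on SUS replicate 3. Of 27 immediate early genes, 22 were above 0, with a median of 0.48 that became -0.09 without SUS replicate 3. Fos, which encodes a subunit of the AP-1 transcription factor, had 63.5, 144 and 35.7 CPM in naive and 122, 27.7 and 229 CPM in SUS libraries (0.65, SE 0.67, and -0.10 without SUS replicate 3). Jund, another AP-1 subunit, had 8.94, 17.5 and 3.98 CPM in naive and 16.4, 5.32 and 40.3 CPM in SUS libraries (1.12, SE 0.60). Dusp6, a phosphatase that switches off ERK, differed by 0.84 (SE 0.57), and Fosl1, also of AP-1, by -0.55 (SE 0.28). Heat shock genes had 14 of 19 members above 0 and a median of 0.30 (-0.15 without SUS replicate 3), with Hspe1, the mitochondrial co-chaperonin, at 0.50 (SE 0.41). Genes of the unfolded protein response had 18 of 20 members above 0 and a median of 0.24 (-0.06 without SUS replicate 3). Atf4, its central transcription factor, had 34.3, 70.4 and 28.7 CPM in naive and 71.8, 21.7 and 105 CPM in SUS libraries (0.59, SE 0.53).

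Microglia, the resident macrophages of the brain, gave the highest list median, with a summed level whose naive range lay inside the SUS range. All 18 markers were above 0, with a median of 0.84, and 0 of 18 passed the test or were separated. The median was 0.26 without SUS replicate 3 and 1.61 without naive replicate 2. Trem2, a lipid-sensing receptor, had 35.3, 49.3 and 12.7 CPM in naive and 59.9, 11.8 and 95.5 CPM in SUS libraries (0.80, SE 0.62). Cx3cr1, the fractalkine receptor, had 229, 438 and 25.8 CPM in naive and 548, 26.6 and 700 CPM in SUS libraries (0.88, SE 1.12). Tyrobp, the signalling partner of Trem2, and Tmem119 differed by 0.76 (SE 0.60) and 1.04 (SE 0.96). The summed CPM of the 18 markers were 2259, 4142 and 386 in naive and 5076, 332 and 7067 in SUS libraries, and no marker was at 0 in all 6. Naive replicate 3 and SUS replicate 2 thus held little microglial RNA, 3.41 and 3.06 times background for the median marker, against 17.5 to 52.1 times in the other 4. In bulk samples such as these, fewer cells of a type and less RNA per cell cannot be told apart. The ribosomal, translation factor, immediate early, heat shock, unfolded protein and interferon lists also had their lowest scores in these 2 libraries. So did the oligodendrocyte, border and blood macrophage and mitochondrially encoded lists, as the plot of lists by library shows. The part of microglial RNA in those lists was not tested. With these 2 libraries left out together, the median was 0.89 for microglia, 0.68 for ribosomal proteins and 0.59 for immediate early genes, and 0 genes passed the test. This alternative was chosen after seeing the data, so these medians are no independent check of the differences.

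**Figure D5:**
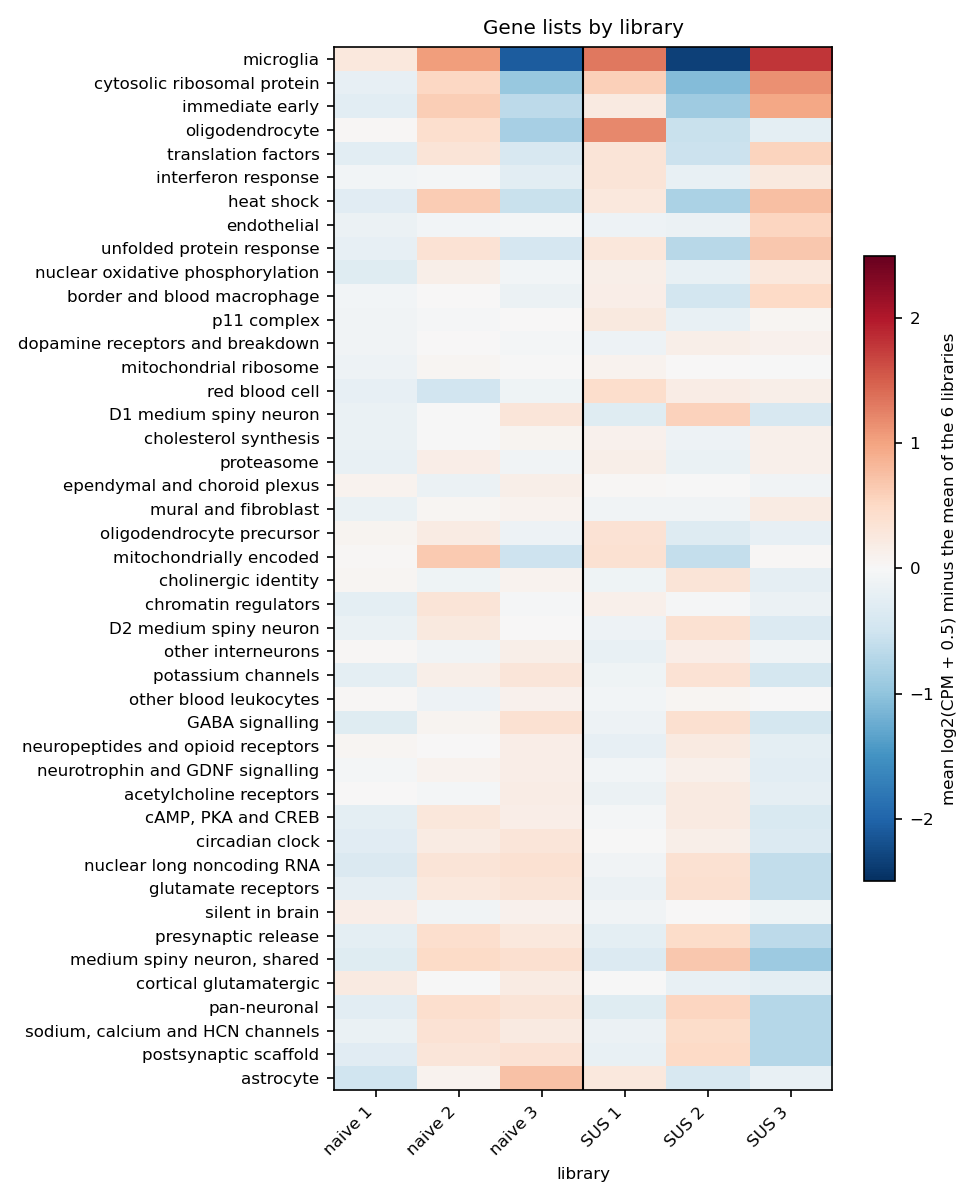
Rows are gene lists in the order of their median fold change, columns are the 6 libraries, and the colour is the list's mean log2(CPM + 0.5) minus its mean over the 6 libraries. The microglial row runs from -2.33 in SUS replicate 2 to 1.79 in SUS replicate 3, and the neuronal rows at the bottom are low in SUS replicate 3.

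The pan-neuronal list and the list of markers shared by medium spiny neurons had medians below 0 and their lowest score in SUS replicate 3. Pan-neuronal markers had 3 of 17 members above 0 and a median of -0.24, which was 0.03 without SUS replicate 3. Stmn2, a regulator of axonal microtubules, was the 1 separated marker, with 25.9, 31.4 and 25.4 CPM in naive and 18.7, 22.6 and 16.8 CPM in SUS libraries (-0.50, SE 0.23). That is 1 of 17 markers, against 4.15% of all genes tested, and Stmn2 lay at 2.09 times background. Nefm, a neurofilament subunit, differed by -0.73 (SE 0.36) and the growth-cone gene Gap43 by -0.40 (SE 0.35). Markers shared by medium spiny neurons had 2 of 18 members above 0 and a median of -0.22 (0.04 without SUS replicate 3, -0.76 without SUS replicate 2). The lists of D1 and D2 medium spiny neuron markers had 5 of 8 and 4 of 8 members above 0 and medians of 0.07 and -0.04, which were -0.29 and -0.32 without SUS replicate 2; the D2 median was 0.13 without naive replicate 2. Other interneurons had 5 of 12 markers above 0 and a median of -0.05 (0.05 without SUS replicate 1). The summed CPM of the shared medium spiny neuron markers were 2183, 4060 and 3376 in naive and 2078, 4190 and 1128 in SUS libraries. Adcy5, the main adenylyl cyclase of the striatum, had 646, 1331 and 988 CPM in naive and 633, 1092 and 231 CPM in SUS libraries (-0.60, SE 0.66). Ppp1r1b, which encodes DARPP-32, had 55.2, 94.3 and 86.8 CPM in naive and 70.3, 111 and 27.2 CPM in SUS libraries (-0.18, SE 0.49, and 0.21 without SUS replicate 3).

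Synaptic and channel lists lay on the same side. Presynaptic release genes had 5 of 20 members above 0 (median -0.22), postsynaptic scaffold genes 5 of 20 (-0.26), glutamate receptors 7 of 22 (-0.17) and sodium, calcium and HCN channels 4 of 24 (-0.25). Without SUS replicate 3 the medians were -0.07 for presynaptic, 0.03 for scaffold and 0.07 for glutamate receptor genes and -0.02 for sodium, calcium and HCN channels. Without SUS replicate 2 they were -0.73, -0.63, -0.52 and -0.60. The potassium channel and GABA lists had medians of -0.05 and -0.07. Grin2d, an NMDA receptor subunit, was the 1 separated gene of 22 glutamate receptors (-0.50, SE 0.22), against 4.15% of all genes tested. It lay at 1.34 times background. The list of cortical glutamatergic markers, from neurons of the cortex that borders the striatum, had 0 of 11 members above 0 and a median of -0.24, which stayed between -0.34 and -0.23 when any 1 library was left out. Only 1 of its 11 genes reached 3 times background, and 2 were separated, both lower in SUS, against 4.15% of all genes tested. Neurod1, a transcription factor, had 5.44 to 7.77 CPM in naive and 3.26 to 4.98 CPM in SUS libraries (-0.67, SE 0.31). Emx1 was the other (-0.76, SE 0.47). Neither stood above background, at 0.991 and 0.523 times. A list of genes held to be silent in brain had 9 of 25 members above 0 and a median of -0.18.

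The genes that define cholinergic interneurons showed 1 library apart. Chat had 16.8, 13.3 and 17.8 CPM in naive libraries and 11.6, 73.5 and 9.31 CPM in SUS libraries (0.97, SE 0.56), with 663 counts in SUS replicate 2. Slc18a3, whose gene lies within the first part of the Chat locus, had 3.33, 4.84 and 2.41 CPM in naive and 4.66, 10.97 and 2.90 CPM in SUS libraries (0.89, SE 0.45). The counting strand is not given in the sources used here, and both genes lie on the minus strand of chromosome 14 in overlapping positions (32408203 to 32465989 and 32462438 to 32464850, GRCm38). Slc5a7, at another locus, had 12.1, 10.9 and 12.5 CPM in naive and 11.5, 8.98 and 14.4 CPM in SUS libraries (-0.04, SE 0.23), with its lowest value in SUS replicate 2. On average over the 6 libraries, Chat, Slc18a3 and Slc5a7 lay at 2.52, 1.01 and 1.02 times background. In SUS replicate 2 they lay at 7.86, 2.29 and 0.80 times. Without SUS replicate 2, the log2 fold change was -0.63 for Chat, 0.18 for Slc18a3 and 0.11 for Slc5a7. Prima1, which anchors acetylcholinesterase in the membrane, was separated at 5.20 to 5.74 CPM in naive and 7.74 to 9.20 CPM in SUS libraries (0.63, SE 0.23). It lay at 2.72 times background. Slc10a4, a vesicular transporter of cholinergic and aminergic neurons, was separated downward (-0.33, SE 0.29). Over the list, 8 of 17 genes were above 0 and the median was -0.02. The list had 1 separated gene each way, against 3.85% of all genes tested upward and 4.15% downward.

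Dopamine and opioid genes come next. Drd1, the D1 receptor gene, had 12.3, 15.7 and 26.5 CPM in naive and 8.45, 37.1 and 14.8 CPM in SUS libraries (0.13, SE 0.46, and -0.67 without SUS replicate 2). Drd2, the D2 receptor gene, had 27.3, 44.7 and 38.3 CPM in naive and 25.0, 49.3 and 16.9 CPM in SUS libraries (-0.27, SE 0.38, and 0.02 without SUS replicate 3). Both had their highest value in SUS replicate 2, the library also highest in medium spiny neuron markers. Th, the rate-limiting enzyme of dopamine synthesis, was separated at 8.61 to 9.47 CPM in naive and 9.64 to 14.8 CPM in SUS libraries (0.36, SE 0.24). It lay at 2.12 times background, and its RES libraries had 9.11, 12.5 and 13.4 CPM (0.38, RES minus naive). Th was the 1 separated gene of 12 in the dopamine list, against 3.85% of all genes tested. Maoa, an enzyme that breaks down monoamines, differed by 0.58 (SE 0.29). Of the neuropeptides and opioid receptors, 6 of 16 were above 0, and the 3 separated genes were lower in SUS, against 4.15% of all genes tested: Tac2, which encodes neurokinin B (-0.55, SE 0.27), Crh, the corticotropin-releasing hormone (-0.53, SE 0.32), and Oprm1, the mu opioid receptor (-0.28, SE 0.24). Oprm1 had 33.6 to 44.0 CPM in naive and 30.5 to 33.0 CPM in SUS libraries. Tac2 and Crh lay at 2.57 and 2.16 times background. S100a10, which encodes p11, had 3.60, 3.32 and 2.59 CPM in naive and 3.68, 3.10 and 3.63 CPM in SUS libraries (0.15, SE 0.43), at 1.35 times background.

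Among other glia, oligodendrocyte genes had 14 of 16 members above 0 and a median of 0.45, which was -0.32 without SUS replicate 1. Ugt8a, which makes the myelin lipid galactosylceramide, had 19.2, 18.4 and 6.20 CPM in naive and 69.1, 12.7 and 29.0 CPM in SUS libraries (1.37, SE 0.50). SUS replicate 1 held 2829 summed CPM of the list and the other 5 libraries 522 to 1741. Astrocyte genes had 2 of 18 members above 0 and a median of -0.27, which was 0.14 without naive replicate 3, the library with the highest sum (6915 CPM against 2605 to 4540 in the others). Sox9, an astrocyte transcription factor, had 31.3, 68.3 and 118 CPM in naive and 55.9, 30.0 and 33.6 CPM in SUS libraries (-0.87, SE 0.49). Slc1a2, which encodes the glutamate transporter GLT-1, had 599, 842 and 2117 CPM in naive and 958, 764 and 769 CPM in SUS libraries (-0.51, SE 0.71, and 0.20 without naive replicate 3). Endothelial genes had 13 of 16 members above 0 and a median of 0.27, which was -0.04 without SUS replicate 3.

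The interferon list kept a positive median, 0.19 to 0.43, when any 1 library was left out. It had 17 of 23 members above 0, a median of 0.32 and 3 separated members, all higher in SUS, against 3.85% of all genes tested, and 0 of 23 passed the test. Besides Ifi27, these were Ifi44, with 9.53 to 12.3 CPM in naive and 12.97 to 17.9 CPM in SUS libraries (0.57, SE 0.22), and Ifi35, with 1.51 to 1.73 CPM in naive and 2.71 to 5.44 CPM in SUS libraries (1.18, SE 0.45). Both lay close to background, at 1.05 and 0.761 times, and 6 of the 23 genes reached 3 times background. The summed CPM of the list were 311 to 387 in naive and 320 to 491 in SUS libraries, which overlap. Its mean log2(CPM + 0.5) was lowest in naive replicate 3 (3.47) and SUS replicate 2 (3.54), the libraries with little microglial RNA. The part of microglial RNA in this list was not tested.

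The median fold change also differed by gene length. Protein-coding genes at 3 times background or more were split into 5 equal groups by exonic length, and the median log2 fold change was 0.09, 0.08, 0.04, 0.01 and -0.02 from the shortest to the longest group. Without ribosomal and oxidative phosphorylation genes, the shortest group had a median of 0.07. The short-gene lists above, which hold ribosomal and respiratory proteins, and the long-gene lists of synapse and channels were not compared at equal length, and the part of length in their medians was not tested.

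The RES libraries share the naive libraries as their baseline, so the 2 comparisons with naive are not independent and are only set side by side. Ribosomal protein genes had medians of 0.58 for SUS minus naive and -0.75 for RES minus naive. Immediate early genes had 0.48 and -0.84, microglial genes 0.84 and -1.29, and genes of the unfolded protein response 0.24 and -0.45. Cholinergic genes had -0.02 and 0.06. The microglial score, the list's mean log2(CPM + 0.5), was 6.46, 3.02 and 3.69 in RES replicates 1 to 3. It was 6.53, 7.31 and 4.19 in naive and 7.60, 3.94 and 8.07 in SUS libraries. Counts up to the background density made up 45.2% of nuclear counts in RES replicate 3, and 21.6% to 33.9% in naive and SUS libraries. The part of these library differences in the RES medians was not tested. Tested directly against RES, 0 of 39210 genes (0%) passed in SUS, with a smallest adjusted p of 0.87 by edgeR's quasi-likelihood test and 2227 genes at an unadjusted p under 0.05. Without SUS replicate 2 and naive replicate 3, 368 genes passed between SUS and RES, and on library totals with no TMM factor 1 gene did. Leaving out SUS replicate 2 removed the SUS library with the lowest microglial score, while RES replicates 2 and 3, at 3.02 and 3.69, stayed in. The part of microglial RNA in these 368 calls was not tested. The Hbb-bs difference from RES was 1.10 on the log2 scale, with 18, 11 and 23 counts in the RES libraries, and that of Rraga 0.68. In CPM, Hbb-bs stood at 3.15, 2.36 and 2.99 in RES libraries, all above the naive range of 1.47 to 1.57. Hba-a1 was also above naive in all RES libraries, with a RES minimum of 0.644 and a naive maximum of 0.555 CPM. The log2 differences, RES minus naive, were 0.90 for Hbb-bs, 1.51 for Hba-a1 and -0.06 for Hbb-bt. Higher Hbb-bs and Hba-a1 than in naive libraries was thus not particular to SUS.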

How the data were processed

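The deposited table holds raw read counts per Ensembl gene, whole numbers that the authors had not normalized. Tools named in the submitters' processing notes are STAR 2.5.2b, HTSeq, FastQC, DESeq2 and DESeq, with GRCm38 as the build. The annotation release, the strand setting and the library kit are not given in the sources used here. Groups follow the sample titles. Symbols, positions and exonic lengths came from GENCODE mouse release M21, which matched 52489 of 52636 gene IDs, and 147 IDs stayed unmatched. Genes were filtered with filterByExpr and scaled by TMM. The 9 libraries were fitted in 1 model of 3 groups with edgeR 4.0.16 (limma 3.58.1, R 4.3.3), using the quasi-likelihood F test with Benjamini-Hochberg adjustment over all genes at 0.05. A standard error is the fold change divided by the square root of its F value. The procedure was tested on simulated counts.

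Where fewer than 5 genes passed, the 12 genes each way with the smallest unadjusted p were named. They were taken from separated protein-coding genes at 10 CPM and 3 times background or more. Predicted-gene, Rik and clone names and receptor families were left out. A fixed panel and up to 3 genes per list were named as well. Some genes outside this rule are named and said to be so, or are separated members of lists named after their values were seen (Slc10a4, Oprm1 and Tek). Libraries were assigned to groups by title, but the choice of this comparison, of the 44 lists (925 entries, 918 tested) and of the tests was made with earlier results of these data known. Alternatives were DESeq2 1.42.0, limma-voom with sample weights, other scaling and filters, a replicate block and leaving out libraries.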

Additional observations from a re-analysis of the deposited data

Results flagged for a closer look

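Ifi27 differed in opposite directions in the 2 cocaine groups. All 3 SUS libraries (21.2, 15.7 and 18.0 CPM) lay above the naive libraries (12.9 to 13.1 CPM), and all 3 RES libraries (8.71 to 12.0 CPM) lay below them. In multiples of background, which use no TMM factor, RES libraries stood at 3.46, 4.77 and 2.59 and naive libraries at 4.09 to 4.83. On that scale RES replicate 2 lay within the naive range, and the SUS libraries (5.40 to 7.43) still lay above it. The log2 difference, SUS minus RES, was 0.79, with an unadjusted p of 0.00267 and an adjusted p of 0.87 by edgeR's quasi-likelihood test, so that it did not pass. Ifi27 was noticed among the named genes by this pattern, and the naive libraries serve as the baseline of both differences.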

How the results depend on the processing

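The number of genes called between SUS and naive was 0 in every setting run. The count at an unadjusted p under 0.05 (1225) was 560 on library totals with no TMM factor, 138 among genes at 10 CPM or more, 3225 with limma-voom, and 733 (without naive replicate 3) to 3576 (without SUS replicate 2) with 1 library left out. Separated genes numbered 985 higher and 950 lower with no TMM factor, and 2910 to 5299 higher and 2960 to 4805 lower with 1 library left out, where fewer libraries have to separate. Between SUS and RES, 1 gene was called with no TMM factor and 368 without SUS replicate 2 and naive replicate 3 together, an alternative chosen after seeing the data, and the cause was not tested. That alternative moved the medians of the astrocyte (0.25), cholesterol (0.20), cholinergic (-0.26) and other blood leukocyte (0.088) lists, and gave Chat -0.54, Drd1 -0.26, Slc18a3 -0.070, Slc1a2 0.26 and Slc5a7 0.15. At 10 CPM or more the leukocyte median was 0.15 and the red blood cell median -0.10, with fewer genes tested. With limma-voom the dopamine median was -0.049, Chat -0.079 and Drd1 -0.64. With 1 library left out, medians ran from 0.063 to 0.29 for dopamine, -0.041 to 0.42 for endothelial, 0.047 to 0.16 for mitochondrial ribosome, -0.36 to -0.068 for neuropeptide, -0.35 to 0.065 for oligodendrocyte precursor and -0.73 to -0.067 for presynaptic genes. Genes whose sign turned with 1 library left out ranged from -0.67 to 0.54 for Drd1, from -0.23 to 0.39 for Hbb-bt, from -0.84 to 0.20 for Slc1a2, from -0.0061 to 0.27 for S100a10, from -0.22 to 0.11 for Slc5a7, from -0.63 to 1.40 for Chat, from -0.10 to 1.34 for Fos, from -0.81 to 0.019 for Drd2, from -0.69 to 0.21 for Ppp1r1b.

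Same-numbered SUS and naive libraries did not deviate together from their group means (r = -0.02, -0.17 and -0.16 across genes), so the numbers were not taken as pairs. With the replicate block, 0 genes were called and 1142 had an unadjusted p under 0.05, and Drd1 was -0.11. With 3 libraries a group and a median standard error of 0.34, small differences were not detectable given the scatter between libraries.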

Other observations

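Further lists and gene classes are given as values. Circadian clock genes had 4 of 18 members above 0 and a median log2 fold change of -0.14, SUS minus naive, which stayed below 0 with any 1 library left out (-0.29 to -0.003). Nr1d1, which encodes the clock repressor REV-ERB alpha, had 18.1, 26.9 and 51.4 CPM in naive and 25.0, 25.4 and 13.3 CPM in SUS libraries (-0.61, SE 0.39). Genes of neurotrophin and GDNF signalling had 2 of 13 members above 0 and a median of -0.10 (-0.26 to -0.06 with 1 library left out). Among endothelial genes, Egfl7, a secreted factor of vessels, was separated at 5.47 to 7.40 CPM in naive and 7.76 to 13.2 CPM in SUS libraries (0.62, SE 0.29). Tek, the angiopoietin receptor, was separated at 26.9 to 29.6 and 29.7 to 43.0 CPM (0.28, SE 0.25). These were 2 of 16 endothelial genes, against 3.85% of all genes tested. Egfl7 lay at 1.10 times background, and 6 of the 16 genes reached 3 times background. None of these genes passed the test, and SUS replicate 3 was the highest library for both endothelial genes.

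Gene classes differed in how many members were separated. Of 377 small nucleolar RNA genes, 8.22% were separated downward and 2.92% upward, with a median of -0.17. Of 5365 processed pseudogenes, 6.30% were separated downward and 3.73% upward, with a median of -0.04. Of 2663 genes of the class TEC (transcripts yet to be experimentally tested), 3.34% were separated downward and 5.90% upward, with a median of 0.10, and of 276 sense intronic genes 2.90% and 5.07%, with a median of 0.09. Of 20629 protein-coding genes, 3.24% were separated downward and 3.65% upward. Over all genes tested these shares were 4.15% and 3.85%.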
